A study of Mus musculus with 19 samples.

Results

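The 6 mature miRNAs described here come from 3 hairpins that blood-forming cells are known to use, miR-142, miR-150 and miR-223. They are mmu-miR-142-3p, mmu-miR-142-5p, mmu-miR-150-5p, mmu-miR-150-3p, mmu-miR-223-3p and mmu-miR-223-5p, written below without the mouse prefix. They were taken by name, both arms of each hairpin, from the 1136 miRNAs on the array (1079 of mouse and 57 of viruses), without regard to their signal. Total RNA of whole tissue was labelled with Cy3 and hybridised to single-colour Agilent mouse miRNA arrays, and 19 arrays from 8 mice were analysed. High-active mice were of the inbred strain C57L/J and low-active mice of the inbred strain C3H/HeJ, named for how far each strain runs on a wheel of its own accord. All were males of 8 weeks of age at the start, untreated, and housed singly for 1 week beside a locked running wheel, so that no mouse had run on it during that time. High-active mice gave 4 soleus arrays, 2 arrays of the extensor digitorum longus (EDL) and 4 nucleus accumbens arrays, and low-active mice gave 2, 4 and 3. The soleus is a slow-twitch muscle of the calf, the EDL a fast-twitch muscle of the lower leg, and the nucleus accumbens a region of the ventral forebrain that takes part in reward. Within a group each array was a different mouse. Each activity level was represented by 1 inbred strain, so activity and every other difference between C57L/J and C3H/HeJ cannot be told apart.

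A miRNA gene is transcribed into a hairpin, from which one strand or the other is loaded into a silencing complex, and bases 2 to 8 of that strand, the seed, pair with target messages. miR-142 is made by nearly all cells of the blood lineage. miR-150 is abundant in mature B and T lymphocytes, where it restrains the transcription factor Myb, and miR-223 is abundant in granulocytes and their precursors, where it restrains Mef2c. In a tissue that was not cleared of blood, such miRNAs can come from circulating cells, from resident macrophages or microglia, or from the tissue's own cells, and an array of whole-tissue RNA does not show which. Fewer cells of a type and less of a miRNA per cell cannot be told apart in such samples either.

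The mature sequences are shown because seeds decide which messages a miRNA can pair with and because the arms measured here differ in whether they gave a signal. RefSeq (GRCm38.p6) held 5 of the 6, with the seed in capitals and each sequence written 5′ to 3′. RefSeq names the miR-142 hairpin miR-142a.

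mmu-miR-142-3p: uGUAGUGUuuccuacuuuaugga
mmu-miR-142-5p: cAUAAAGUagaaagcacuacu
mmu-miR-150-3p: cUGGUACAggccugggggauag
mmu-miR-223-3p: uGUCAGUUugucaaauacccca
mmu-miR-223-5p: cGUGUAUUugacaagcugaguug

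The seeds of these 5 sequences all differed, and no other of the 1738 mature sequences in the table carried any of them. miR-142-3p lies on the plus strand at chr11:87756903-87756925 and miR-142-5p at chr11:87756867-87756887, in the gene Mir142, which overlaps Mir142b in the annotation. The nearest other gene to Mir142 is the protein-coding Tspoap1. miR-150-3p lies on the plus strand at chr7:45121798-45121819 in Mir150. miR-223-3p lies on the plus strand at chrX:96242884-96242905 and miR-223-5p at chrX:96242842-96242864, in Mir223, which overlaps the long non-coding RNA gene F630028O10Rik.

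One arm of each hairpin was measured and the other was not. miR-150-5p and miR-223-3p were detected on all 19 arrays, with all 713 and all 721 of their spots well above background. miR-142-3p was detected on 17 of 19 arrays, with 537 of its 722 spots well above background. The arrays that missed it were the EDL arrays of low-active mice 195 and 196. Detected means here that most of the spots of a probe were well above background. No spot of miR-142-5p (726 spots) or of miR-223-5p (719 spots) was well above background on any array, and 4 of the 731 spots of miR-150-3p were. The intensity of a probe on an array ran between -5.60 and 12.1 for miR-142-5p, between -4.74 and 18.9 for miR-150-3p and between -7.19 and -0.929 for miR-223-5p. These 3 arms were not well above background in any of the 6 groups, so no strain or tissue difference is given for them. No spot of any of the 6 was saturated.

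Levels below are log2 of the background-subtracted intensity after each array was scaled to a common 75th percentile, within a tissue for strain differences and over all 19 arrays for tissue differences. Arrays detected 242 to 392 miRNAs. The tissue labels were checked against fixed lists, and 7 of 7 neuronal miRNAs were lower in the soleus and in the EDL than in the nucleus accumbens, while 6 of 6 striated muscle miRNAs were higher in the soleus and 5 of 6 in the EDL. The log2 of the summed signal of the muscle list was 18.9 to 19.7 on the muscle arrays, against 8.88 to 9.21 on 6 nucleus accumbens arrays and 11.2 on that of low-active mouse 197.

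**Figure D1:**
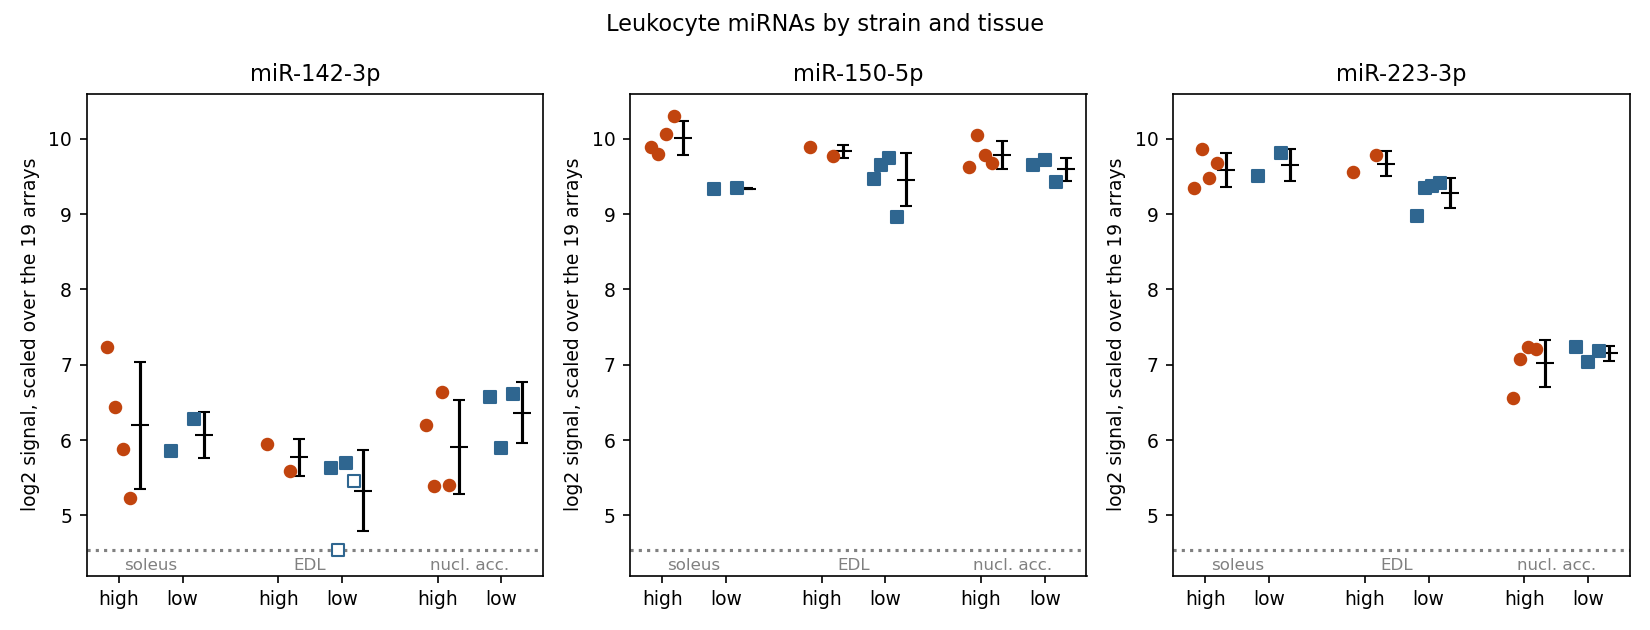
Signal of the 3 measured members on each array, as log2 of the intensity scaled over the 19 arrays, with high-active (circles) left of low-active (squares) in each tissue; the black bar and line beside the points are the group mean ± SD, the dotted line is the floor and open symbols are arrays where the miRNA was not detected. miR-223-3p lay between 8.98 and 9.86 on all 12 muscle arrays and between 6.56 and 7.24 on all 7 nucleus accumbens arrays, while miR-150-5p and miR-142-3p overlapped between the tissues.

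mmu-miR-223-3p, the myeloid miRNA, was about 5 times as high in both muscles as in the nucleus accumbens. With arrays scaled together, its log2 signal in the soleus was 9.34, 9.48, 9.67 and 9.86 in high-active mice and 9.51 and 9.81 in low-active mice. In the EDL it was 9.55 and 9.79 in high-active mice and 8.98, 9.35, 9.38 and 9.42 in low-active mice. In the nucleus accumbens it was 6.56, 7.08, 7.20 and 7.24 in high-active mice and 7.04, 7.18 and 7.23 in low-active mice. No nucleus accumbens array reached any muscle array. The difference averaged over the strains was 2.54 ± 0.13 (SE) between soleus and nucleus accumbens, a 5.80-fold higher signal (95% confidence interval 4.80 to 7.01, limma adjusted p = 2.24e-11). Between EDL and nucleus accumbens it was 2.39 ± 0.13 (SE), or 5.24-fold (4.34 to 6.33, adjusted p = 5.13e-11). These comparisons moved most miRNAs, with 78.9% of the 484 tested past adjusted p 0.05 between soleus and nucleus accumbens and 75.8% between EDL and nucleus accumbens, so passing the test does not set miR-223-3p apart. At least 2-fold as well as past the test were 54.8% and 51.9%. Under every alternative processing that was run, both differences stayed past the test, at 1.82 to 3.20 on the log2 scale.

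The same difference was seen within each mouse. All 6 mice with both tissues had more miR-223-3p in the soleus than in the nucleus accumbens, by 2.10 to 3.30 on the log2 scale (4.30-fold to 9.83-fold), and all 5 mice with both EDL and nucleus accumbens had more in the EDL, by 1.75 to 2.71 (3.35-fold to 6.54-fold). The widest of these gaps was that of high-active mouse 224, which had the lowest nucleus accumbens signal and the highest soleus signal. The soleus and the EDL did not differ in miR-223-3p beyond their spread, the difference being 0.15 ± 0.14 (SE, 95% confidence interval -0.14 to 0.43, adjusted p = 0.681).

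miR-150-5p, the lymphocyte miRNA, was near the same level in all 3 tissues. Averaged over the strains, soleus and nucleus accumbens differed by -0.02 ± 0.13 (SE, 95% confidence interval -0.29 to 0.26, limma adjusted p = 0.915), EDL and nucleus accumbens by -0.05 ± 0.13 (-0.32 to 0.23, adjusted p = 0.757) and soleus and EDL by 0.03 ± 0.14 (-0.26 to 0.32, adjusted p = 1). This flat pattern depended on the scaling. Where the percentile was taken over all probes, miR-150-5p was 0.53 higher in the soleus and 0.61 higher in the EDL than in the nucleus accumbens (adjusted p = 0.0197 and 0.00949), and after quantile normalization 0.51 and 0.44 higher (adjusted p = 0.00887 and 0.0211). The percentile over all probes also moved the median of all 484 miRNAs, by 0.33 and 0.28, and quantile normalization moved it by 0.22 and 0.20. Relative to that median, miR-150-5p stood at 0.19 in the soleus and 0.15 in the EDL as reported, at 0.41 and 0.53 with the percentile over all probes and at 0.49 and 0.44 after quantile normalization. miR-223-3p stood at 2.74 and 2.59 as reported, and at 2.96 or more with either of the others.

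mmu-miR-142-3p, the miRNA shared by most blood cells, gave the widest spread between mice of a group. In the soleus of high-active mice it was 5.23, 5.88, 6.43 and 7.23, and in low-active mice 5.86 and 6.28. In the EDL it was 5.60 and 5.95 in high-active mice, and 5.62 and 5.69 in the low-active mice 197 and 194 that had it detected, with 4.54 (the floor) and 5.45 in mice 196 and 195, which did not. In the nucleus accumbens it was 5.39, 5.40, 6.19 and 6.64 in high-active mice and 5.89, 6.58 and 6.62 in low-active mice. The tissues overlapped throughout. The signal of soleus minus nucleus accumbens was -0.005 ± 0.33 (SE, 95% confidence interval -0.70 to 0.69, limma adjusted p = 0.997), that of EDL minus nucleus accumbens -0.59 ± 0.33 (-1.28 to 0.11, adjusted p = 0.114) and that of soleus minus EDL 0.58 ± 0.35 (-0.16 to 1.32, adjusted p = 0.358). A 2-fold difference lay inside the last 2 of these intervals, and none of the 3 members passed the test between soleus and EDL, where 16.1% of all miRNAs did.

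Of the 3 measured members, mmu-miR-150-5p had the largest strain difference in the soleus and averaged over the tissues. In the soleus its log2 signal, scaled within the tissue, was 9.61 (mouse 224), 9.72 (223), 9.97 (227) and 10.0 (225) in high-active mice, against 9.03 (195) and 9.18 (194) in low-active mice. Every high-active soleus was above both low-active ones. The difference was 0.73 ± 0.15 (SE), a 1.66-fold higher signal in high-active mice (95% confidence interval 1.27 to 2.17), with an unadjusted p = 0.00450 and a limma adjusted p = 0.0914 over the 342 miRNAs tested, so it did not pass the threshold of 0.05. None of the 3 members passed in the soleus, where 1.17% of all miRNAs did. At an unadjusted p under 0.05, 1 of the 3 passed, as did 17.3% of all miRNAs. The same share, 17.3%, was higher in high-active mice without overlap. Both probes of miR-150-5p gave the difference, 0.73 for the brighter and 0.80 for the other. Without scaling, the soleus difference was 0.02 (adjusted p = 0.956). The 75th percentile by which arrays were scaled was 588 to 1001 in high-active and 1206 to 1357 in low-active soleus. The low-active arrays were thus the brighter ones in every case and were scaled down. Relative to the median of all miRNAs, the soleus difference was 0.75 as reported and 0.70 without scaling. Taking values relative to that median is itself a scaling, so the 2 were bound to be close.

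In the EDL miR-150-5p was 9.59 (mouse 227) and 9.79 (225) in high-active mice, against 8.89 (195), 9.46 (196), 9.48 (197) and 9.48 (194) in low-active mice. The groups did not overlap, but by a gap smaller than the spread between the low-active mice, and the difference of 0.36 ± 0.24 (SE, 95% confidence interval -0.22 to 0.94) did not pass the test (limma adjusted p = 0.724). Without the array of mouse 195, the lowest of the group, and with the other arrays scaled anew, it was 0.05 (adjusted p = 0.901). That value therefore reflects the new scaling as well as the missing mouse. In the nucleus accumbens miR-150-5p was 9.66 (224), 9.76 (223), 9.87 (225) and 10.2 (227) in high-active mice, against 9.41 (194), 9.68 (197) and 9.86 (195) in low-active mice. The strains overlapped there, with a difference of 0.22 ± 0.17 (SE, -0.18 to 0.63, adjusted p = 0.483).

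Averaged over the 3 tissues in 1 fit, miR-150-5p was higher in high-active mice by 0.41 ± 0.11 (SE) on the log2 scale, or 1.33-fold (95% confidence interval 1.14 to 1.56, limma adjusted p = 0.0168 over 484 miRNAs). This fit took the 19 arrays as independent, although they came from 8 mice. With mouse as a random block the difference was 0.40 (limma adjusted p = 0.0366). miR-150-5p was the 1 of the 3 measured members past the test in this comparison, where 14.7% of all miRNAs passed, 20 of them higher and 51 lower in high-active mice (64 higher and 29 lower where arrays were scaled by the percentile over all probes). The direction was the same under the 12 other settings run and with each of the 19 arrays left out, at 0.33 to 0.66, and within every slide that held both strains: 0.61 and 1.01 in the soleus, 0.31 and 0.70 in the EDL, and 0.01 and 0.20 in the nucleus accumbens. Each within-slide value rests on 1 low-active array and on 1 to 3 high-active arrays, and mice recur among them. The call for the average was not as steady. It was lost without scaling (adjusted p = 0.467), after quantile normalization (0.103), after another background correction (0.0803), with the scanner software's own signal per miRNA (0.164), and when the soleus array of low-active mouse 195 (0.0532) or the EDL array of high-active mouse 225 (0.0658) was left out. No member passed the test of whether the strain difference itself differed between tissues, where 7.64% of all miRNAs did for soleus against nucleus accumbens, 5.99% for EDL against nucleus accumbens and 0.62% for soleus against EDL. For miR-150-5p, soleus minus nucleus accumbens was 0.48 ± 0.26 (SE, adjusted p = 0.356), and this reached 0.68 (adjusted p = 0.0239) when the EDL array of low-active mouse 195 was left out, which belongs to neither tissue and enters that value only through the steps that use all 19 arrays. Without scaling it was -0.59.

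**Figure D2:**
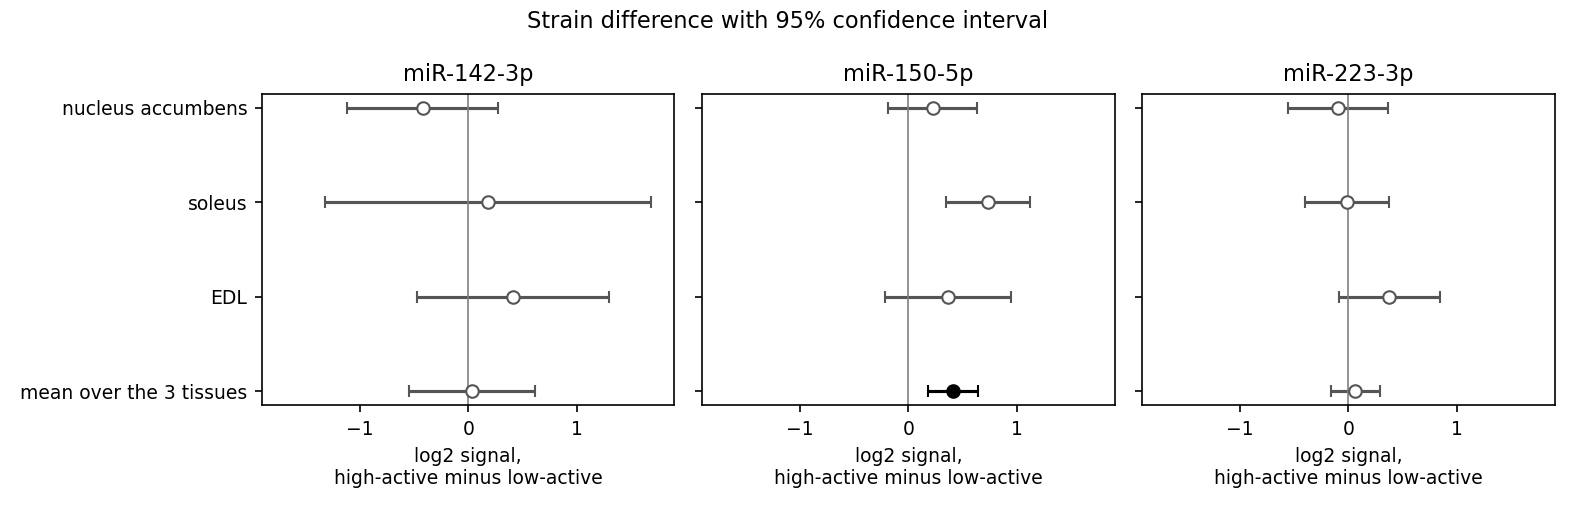
High-active minus low-active difference in log2 signal for each measured member, in each tissue and averaged over the 3 tissues; points are the estimates, bars the 95% confidence intervals, and a filled point marks an adjusted p under 0.05. The average for miR-150-5p is the only filled point, at 0.41, and the intervals for miR-142-3p are the widest.

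**Figure D3:**
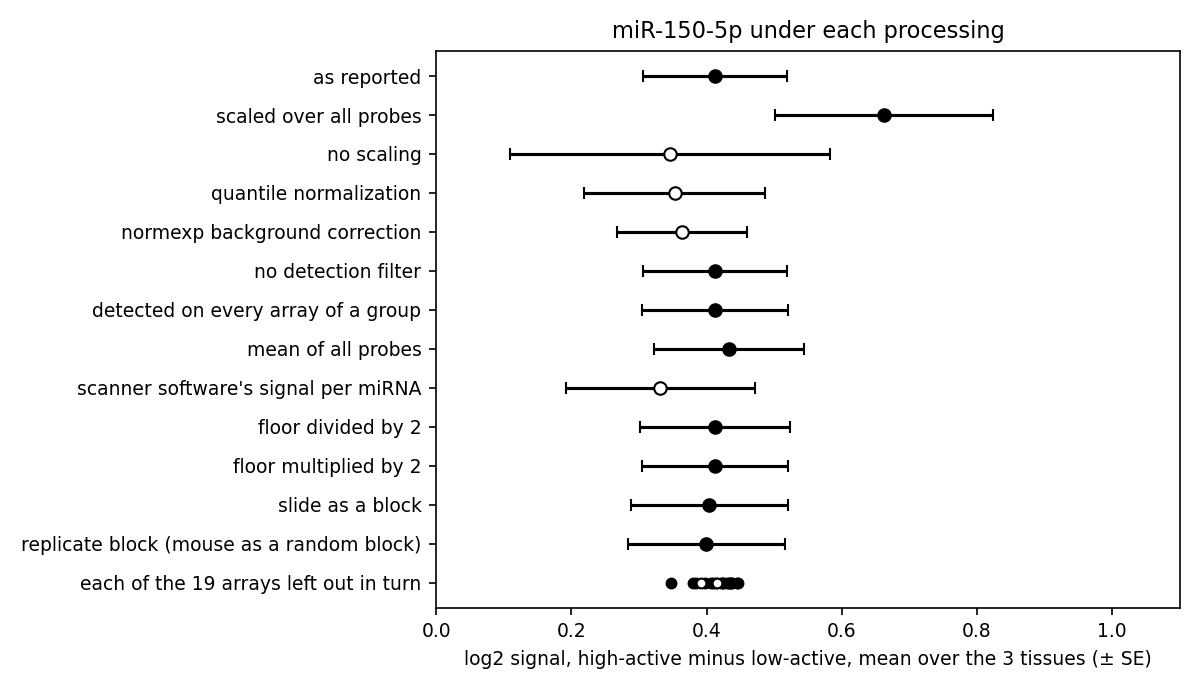
The miR-150-5p strain difference averaged over the 3 tissues, in log2 units with its SE, as reported and under each alternative processing; filled points passed the test and open points did not, and the lowest line holds 1 point for each of the 19 arrays left out. All points lie between 0.33 and 0.66, and 4 of the 12 settings listed under the reported one are open, as are 2 of the 19 points of the lowest line.

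No strain difference of miR-223-3p or miR-142-3p passed the test in any tissue. In the nucleus accumbens miR-223-3p was 6.59 (mouse 224), 7.22 (223), 7.23 (227) and 7.39 (225) in high-active mice, against 7.17 (194), 7.18 (195) and 7.26 (197) in low-active mice, a difference of -0.10 ± 0.20 (SE, 95% confidence interval -0.56 to 0.36, limma adjusted p = 0.799). In the soleus it was 9.17 (223), 9.39 (227), 9.42 (225) and 9.67 (224) in high-active mice, against 9.36 (194) and 9.49 (195) in low-active mice, a difference of -0.01 ± 0.15 (-0.40 to 0.38, adjusted p = 0.998). Without scaling the soleus difference was -0.72 (adjusted p = 0.143), or -0.04 relative to the median of all miRNAs. The strains overlapped in both. In the EDL it was 9.45 (225) and 9.61 (227) in high-active mice, against 8.99 (197), 9.11 (194), 9.16 (196) and 9.35 (195) in low-active mice. There the strains did not overlap, and the difference of 0.38 ± 0.20 (-0.09 to 0.84) did not pass the test (adjusted p = 0.704). These values of miR-223-3p are those of its brighter probe. Its other probe gave a difference of 0.08 in the nucleus accumbens, 0.14 in the soleus and 0.45 in the EDL. Of all 330 miRNAs tested in the EDL, 0.303% passed, 7.27% had an unadjusted p under 0.05 and 9.09% were higher in high-active mice without overlap. None of the 3 members passed in either way, and miR-150-5p and miR-223-3p were the 2 without overlap.

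For miR-142-3p the strain difference was -0.42 ± 0.30 (SE, 95% confidence interval -1.12 to 0.27, limma adjusted p = 0.446) in the nucleus accumbens, where 6.91% of the 391 miRNAs tested passed and none of the 3 members did. At an unadjusted p under 0.05 none did either, against 19.7% of all miRNAs, and none was higher in high-active mice without overlap, against 3.84%. It was 0.19 ± 0.59 (-1.32 to 1.69, adjusted p = 0.912) in the soleus and 0.41 ± 0.37 (-0.47 to 1.30, adjusted p = 0.791) in the EDL. The soleus interval ran from 0.401-fold to 3.22-fold, so a 2-fold difference either way was not detectable with these arrays. The soleus value was -0.24 without the array of high-active mouse 223. Averaged over the tissues, the strains differed by 0.04 ± 0.27 (adjusted p = 0.944) in miR-142-3p and by 0.06 ± 0.11 (adjusted p = 0.740) in miR-223-3p. With the percentile taken over all probes the average for miR-223-3p was 0.31 and passed (adjusted p = 0.0246), and relative to the median of all miRNAs it was 0.21 there and 0.12 as reported.

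Lists of miRNAs known from other cells were set beside the members. The other leukocyte miRNAs (miR-146a, miR-146b, miR-155 and miR-342, both arms) had 5 of 8 arms tested in the fit over all arrays. Averaged over the tissues 2 were higher and 1 lower in high-active mice, with a median of 0.07 against -0.06 over all 484 miRNAs. The one of them with the highest mean signal, miR-342-3p, which lymphocytes and neurons are both known to make, was 2.25 ± 0.11 (SE) higher in high-active mice (4.77-fold, adjusted p = 9.12e-10). The others called, named after their values were seen, were miR-342-5p (0.74 ± 0.04, adjusted p = 2.43e-09) and miR-146b-5p (-0.56 ± 0.10, adjusted p = 0.00176). miR-342-5p was detected only on the 4 high-active nucleus accumbens arrays and lay at the floor in every other group. Its averaged value thus comes from that tissue, and its SE draws on arrays held at the floor. In the nucleus accumbens alone it was 2.24 ± 0.11 (SE, limma adjusted p = 3.15e-05). The red cell list (2 to 4 of 4 arms tested, with miR-451a its brightest) and the vessel wall list (4 of 6 arms tested, with miR-126-3p, the endothelial miRNA, its brightest) had no miRNA past the test between the strains, in any tissue or averaged, with medians over the tissues of -0.03 and 0.14. The red cell median covers arms that went both ways. miR-451a was -1.34 ± 0.45 (SE) between high-active and low-active nucleus accumbens (0.395-fold, adjusted p = 0.148), -0.25 in the soleus and 0.04 in the EDL, and -0.54 ± 0.26 averaged (adjusted p = 0.200). Their part in the miR-150-5p difference was not tested.

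Between tissues the lists moved in different ways. All 4 vessel wall miRNAs tested were higher in the soleus and in the EDL than in the nucleus accumbens, as miR-223-3p was, with medians of 1.98 and 1.86 on the log2 scale, against -0.20 over all miRNAs in both comparisons. miR-126-3p was 3.76-fold and 2.86-fold higher. Of the 5 other leukocyte miRNAs, 4 were lower in both muscles and 1 was higher. The one that was higher, named after its values were seen, was miR-155-5p, which was detected on all 12 muscle arrays and on none of the 7 nucleus accumbens arrays. Of the 4 red cell miRNAs, 1 was higher and none lower in the soleus than in the nucleus accumbens, and 1 was higher and 1 lower in the EDL. The higher one in both, named after its values were seen, was miR-486-3p, which striated muscle is also known to make, at 6.49-fold in the soleus (adjusted p = 9.52e-10) and 12.9-fold in the EDL (adjusted p = 1.64e-11). miR-451a, the red cell miRNA, was at 1.22-fold in the soleus relative to the nucleus accumbens and did not pass the test (adjusted p = 0.411). Its EDL signal was 0.578 times the nucleus accumbens signal (adjusted p = 0.0329). The log2 of the summed signal of the red cell list ran between 12.2 and 12.9 in high-active and between 12.6 and 12.8 in low-active soleus, between 11.4 and 11.9 in high-active and between 10.9 and 12.2 in low-active EDL, and between 10.98 and 12.3 in high-active and between 12.0 and 13.8 in low-active nucleus accumbens. How far blood left in the tissue took part in the miR-223-3p difference was not tested.

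Whether a mouse with more of a member in one tissue had more of it in another could be asked over the 6 mice with both nucleus accumbens and soleus arrays. For miR-142-3p the correlation was positive, with Pearson's r = 0.66 (two-sided exact permutation p = 0.144, adjusted p = 0.175 over the 2 members) and Spearman's rho = 0.54 (exact permutation p = 0.297, adjusted p = 0.564). Mouse 223 was highest in both tissues and mouse 225 was among the 2 lowest in both. Without mice 225 and 227, which lay farthest from the median of the nucleus accumbens, r was 0.34. With 1 mouse left out at a time, r ran between 0.46 and 0.90. For miR-223-3p the correlation was negative, with r = -0.71 (exact permutation p = 0.175, adjusted p = 0.175) and rho = -0.31 (exact permutation p = 0.564, adjusted p = 0.564). Without mice 224 and 225, again the farthest in the nucleus accumbens, r was -0.39. With 1 mouse left out at a time, r ran between -0.88 and -0.71 in the 5 runs where the strains overlapped. Neither relation passed the test. Each r was smaller in size without its 2 farthest mice, but the strains then no longer overlapped in 1 of the tissues. This was the soleus for miR-142-3p and the nucleus accumbens for miR-223-3p. Those 2 values thus carry the strain difference as well and do not show weaker agreement within mice. For miR-150-5p the strains did not overlap in the soleus, so no r over both strains is given, and 4 high-active and 2 low-active mice are too few within a strain. Within high-active mice and with each tissue scaled on its own, the 2 with the most in the nucleus accumbens (227 and 225) also had the most in the soleus. This depended on the scaling. With arrays scaled together, mouse 225 (9.68) was below mouse 223 (9.78) in the nucleus accumbens. Without scaling, mouse 225 was the lowest of the high-active mice in the nucleus accumbens (9.76) and the highest in the soleus (9.90). Over the 4 mice with both muscles, miR-150-5p in the soleus and the EDL was 10.0 and 9.79 in mouse 225, 9.97 and 9.59 in mouse 227, 9.18 and 9.48 in mouse 194, and 9.03 and 8.89 in mouse 195. With each tissue scaled on its own, the order of mice was the same in both muscles, with both high-active mice above both low-active ones. With arrays scaled together, both high-active mice stayed above, but the low-active order changed. Mouse 195 was then above mouse 194 in the soleus (9.34 and 9.33) and below it in the EDL (8.96 and 9.75). Without scaling, the EDL of high-active mouse 227 (9.13) was below that of low-active mouse 194 (9.53).

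**Figure D4:**
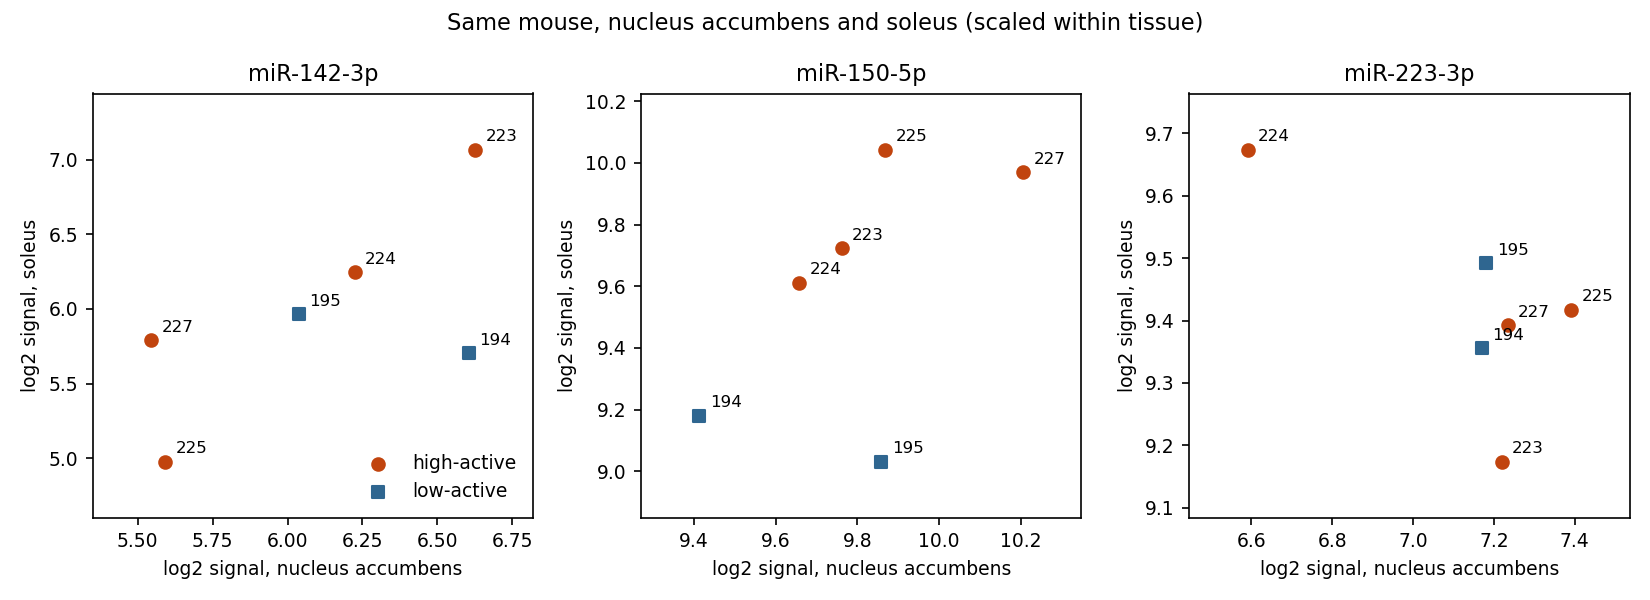
Signal of each measured member in the soleus (vertical axis) against the nucleus accumbens (horizontal axis) of the same 6 mice, as log2 of the intensity scaled within each tissue; points carry the mouse number, circles are high-active and squares low-active. miR-142-3p runs upward (r = 0.66), miR-223-3p downward (r = -0.71, with mouse 224 at the upper left), and in miR-150-5p both low-active mice lie below all high-active mice in the soleus.

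After the 6 group means were taken out, the correlation over the 19 arrays was -0.44 between miR-142-3p and miR-150-5p, -0.18 between miR-142-3p and miR-223-3p, and 0.00 between miR-150-5p and miR-223-3p. These arrays share a scaling, and several share a mouse. The 2 probes of a member followed each other on the same scale with r = 0.905 for miR-142-3p, 0.960 for miR-150-5p and 0.475 for miR-223-3p.

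The miRNAs whose pattern was most like that of a member were found by Pearson's r with 482 others. Over the 19 arrays, miR-223-3p was most like miR-10a-5p, miR-10b-5p and miR-378a-5p (r = 0.98 each). These correlations span nucleus accumbens and muscle arrays, which differ strongly in miR-223-3p. miR-150-5p was most like miR-30c-5p (0.86), miR-30b-5p (0.70) and miR-5117-5p (0.62), and miR-142-3p most like miR-30e-5p (0.81), miR-362-3p (0.78) and miR-101c (0.71). On the deviations from group means, miR-142-3p was most like miR-136-5p (0.93), miR-101c (0.92) and miR-29b-3p (0.92), miR-150-5p most like miR-30e-3p (0.88), miR-30d-5p (0.86) and miR-10a-5p (0.84), and miR-223-3p most like miR-140-3p (0.75), miR-709 (0.74) and miR-15b-5p (0.74). The companions of miR-142-3p on this scale shared its base composition. G and C made up 34.8% of miR-142-3p, 36.4% of miR-136-5p, 36.8% of miR-101c and 34.8% of miR-29b-3p. A sequence was at hand for 383 of the 477 mouse miRNAs tested (80.3%). Of the 129 poorest in G and C, 22.5% had an r over 0.5 with the deviations of miR-142-3p, against 0.901% of the 111 richest. For miR-150-5p those shares were 16.2% and 7.21%, and for miR-223-3p 12.4% and 19.8%. This split was made after the values were seen and its part in the spread of miR-142-3p was not tested.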

How the data were processed

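The authors deposited, for each array, the scanner's intensity of every spot as given by Feature Extraction (version 10.7.1.1), background-subtracted and not normalized between arrays. The authors labelled RNA of integrity above their limit, assigned samples to arrays at random and dropped some arrays for signal that was uneven across the array. The deposited series table gives log2 values after the authors' normalization of each array. As tested here, they were centred on each entry's median within a tissue. It was used only as an alternative, and its percentile is not given in the sources used here. Its rows of the 3 measured members followed the scanner software's signal within 0.03. No column of per-sample values was left out.

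Spots marked as outliers were dropped, the rest averaged per probe (2889 probes), and each array scaled to a shared 75th percentile, taken over those probes that every array of the fit detected (594, 456, 417 and 328 for nucleus accumbens, soleus, EDL and all 19). Values were floored at the median of the lowest detected signals (24.4, 24.1, 21.3 and 23.3), then taken to log2, and a miRNA took its probe with the highest mean. miRNAs detected on at least 3 nucleus accumbens or 2 muscle arrays (2 of 19 in the joint fit) were tested with limma 3.58.1 in R 4.3.3, with Benjamini-Hochberg adjustment over all of them and a threshold of 0.05. Strains were compared within each tissue, and in 1 fit of 6 groups for averages, tissues and their interaction. Agreement within mice was tested by exact permutation (SciPy 1.17.1). Other alternatives changed the scaling, background correction, detection filter, floor, choice of probe and signal column, took slide as a block, or left out each array in turn. The fits were tested on simulated data with independent noise on each array, which cannot cover arrays that share a mouse or a slide, or errors of scaling. The number of arrays limits the precision. The planned background correction on mean signals was run on median signals instead, a choice made after seeing the files. Arrays of the same mouse share an animal by the labels, and their deviations correlated at -0.50 to 0.54 (median 0.06 over 15 pairs), so mouse as a random block was run as an alternative. By rule, all 6 members were named, with at most the 2 brightest miRNAs of each list and the 3 most alike to each member. Further list miRNAs that the report names are marked there as chosen after their values were seen. The members and lists were chosen with earlier results of these data known.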

Additional observations from a re-analysis of the deposited data

Results flagged for a closer look

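In the EDL of low-active mice, miR-150-5p of mouse 195 (8.89 on the log2 scale) lay far from the other 3 arrays (9.46 to 9.48). Its gap was 0.962 of the group's range, past Dixon's limit for 4 values. The same array was 1 of the 2 on which miR-142-3p was not detected, and it had the lowest unscaled signal of miR-150-5p, 219. It was also the dimmest of the 19 arrays as a whole. Its 75th percentile over the probes common to all 19 was 658, and it detected the fewest miRNAs, 242. The 3 measured members were each examined in the 3 groups of 4 arrays, 9 sets in all that share arrays. This was the one marked, and chance marks about 1 in 20.

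The scanner software's own signal per miRNA, which the comparisons use only as an alternative, gave miR-150-3p a value of 446 on the soleus array of low-active mouse 195 and 668 on the EDL array of low-active mouse 197, and listed 0.1 on the other 17 arrays. The 4 probes of miR-150-3p summed to 8.28 and 8.68 on those arrays. The software's values equal the brightest miR-150-3p probe (3.45 and 3.51) plus the probe total of miR-149-5p (443 and 665), within 0.01.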

How the results depend on the processing

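Both muscle differences of miR-223-3p were past the test in every setting run, at 1.94 to 3.20 for the soleus and 1.82 to 3.09 for the EDL on the log2 scale. The averaged strain difference of miR-150-5p stayed above 0 throughout, at 0.33 to 0.66. The number of members past the test in that average was 1 as reported, 2 with the percentile over all probes (miR-223-3p as well), 0 without scaling, after quantile normalization, after normexp and with the software's signal, and 0 to 1 when 1 array was left out. It was 2 in place of 1 for both muscle differences with the percentile over all probes and after quantile normalization, where miR-150-5p was called too. A strain difference that varied between tissues was called for 0 to 1 members when 1 array was left out. Agreement within mice passed for 0 members as reported and 1 without scaling (miR-223-3p, r = -0.91, exact permutation adjusted p = 0.0389). Normexp on mean signals, as planned, was not run, and median signals took their place after the data were seen. The causes of these changes were not tested.

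With mouse as a random replicate block, the averaged difference of miR-150-5p was 0.40 (limma adjusted p = 0.0366), miR-223-3p was 2.53 higher in the soleus and 2.38 in the EDL, and the block changed no call of a member.

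The other changes of direction were in values that passed no test unless named above. For miR-223-3p the strain difference was 0.12 (percentile over all probes), 0.29 (no scaling), 0.0246 (software's signal) and 0.21 (slide 2) in the nucleus accumbens, 0.24 (all probes), 0.0158 (normexp), 0.0670 (mean of all probes), 0.0696 (slide block) and 0.18 (slide 2) in the soleus, and -0.00368 averaged without scaling. For miR-142-3p it was -0.53 (no scaling), -0.0700 (software's signal), -0.24 (slide block), -0.0132 (deposited table) and -0.99 (slide 1) in the soleus, and averaged -0.0681 (no scaling), -0.0377 (software's signal), -0.00295 (doubled floor) and -0.16 (slide block). Soleus minus nucleus accumbens was 0.55 (all probes), 0.67 (quantile), 0.0794 (normexp), 0.26 (slide block) and 0.000641 (mouse block) for miR-142-3p, and 0.53 (all probes), 0.51 (quantile), 0.0494 (software's signal) and 0.00414 (slide block) for miR-150-5p. EDL minus nucleus accumbens was 0.0248 (all probes) and 0.0752 (quantile) for miR-142-3p, and 0.61, 0.44 and 0.0901 (software's signal) for miR-150-5p. Soleus minus EDL of miR-150-5p was -0.0755 (all probes) and -0.0407 (software's signal). The strain difference of soleus minus nucleus accumbens without scaling was -0.49 for miR-142-3p, -0.59 for miR-150-5p and -1.01 for miR-223-3p, the last being -0.0668 after quantile normalization. That of miR-150-5p without scaling was -0.20 for EDL minus nucleus accumbens and -0.39 for soleus minus EDL, and that of miR-142-3p for soleus minus EDL was 0.30 (normexp) and 0.0312 (doubled floor).

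Leaving out 1 array turned the direction of some of these small values. The strain difference of miR-142-3p ran between -0.24 and 0.47 in the soleus and between -0.0706 and 0.15 averaged, that of miR-223-3p between -0.18 and 0.0762 in the nucleus accumbens and between -0.10 and 0.0573 in the soleus. Soleus minus nucleus accumbens ran between -0.18 and 0.16 for miR-142-3p and between -0.0638 and 0.0199 for miR-150-5p, EDL minus nucleus accumbens between -0.0938 and 0.17 and soleus minus EDL between -0.16 and 0.0779 for miR-150-5p. The difference of strain differences ran between -0.66 and 0.00256 for miR-142-3p (soleus minus EDL) and between -0.0890 and 0.26 for miR-223-3p (soleus minus nucleus accumbens).

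Counts over all miRNAs moved more. Across settings other than leaving out arrays they were 4 (no scaling) to 59 (fit of 6 groups) against 27 in the nucleus accumbens, 0 (slide block) to 52 (no scaling) against 4 in the soleus, 0 (normexp) to 10 (fit of 6 groups) against 1 in the EDL, 6 (normexp), 43 (doubled floor) and otherwise 52 to 93 against 71 averaged, and 33 (normexp) to 85 against 78 between the muscles. Those of the differences between strain differences were 0 to 52 against 37, 0 to 32 against 29 and 0 to 9 against 3. Leaving out 1 array gave 8 (low-active mouse 195) to 31 in the nucleus accumbens, where all but mouse 225 gave 17 or fewer. It gave 0 (either low-active mouse), 1 (mouse 227), 2 (mouse 225) and up to 7 (mouse 224) in the soleus, and 0 (mice 225, 227 and 194) to 4 (mouse 195) in the EDL. It gave 40 (EDL of mouse 225), 42 (soleus of mouse 195) and otherwise up to 91 averaged. Between the muscles the EDL array of mouse 195 gave 128, the highest of 56 to 128. For the differences between strain differences the ranges were 24 (soleus of mouse 194) to 76 (EDL of mouse 195), 20 to 40, and 2 to 6 (EDL of mouse 195, with 5 for the EDL of mouse 194 and the soleus of mouse 195). The share of calls that were higher was 28.2% averaged, against 68.8% with the percentile over all probes and 7.27% without scaling. It was 40.1% and 37.9% for soleus and EDL minus nucleus accumbens, against 51.6% and 53.0% with all probes, and 43.6% for soleus minus EDL, against 32.1% with all probes and 96.6% without scaling.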
